A study of Mus musculus with 2 samples.

Results

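Hemidesmosomes are the plaques by which basal keratinocytes hold on to the basement membrane. Integrin α6β4 and type XVII collagen span the membrane, the plakins bind them to the keratin filaments inside the cell, and laminin-332 outside the cell is the ligand of α6β4. Type VII collagen forms the anchoring fibrils that tie laminin-332 to the connective tissue below. In the gingiva the same structures also face the tooth, where the junctional epithelium, which makes Odam, adheres through an internal basal lamina. The 9 genes described here, chosen by symbol among the 32285 genes of the series, were Itga6 and Itgb4 (the subunits of integrin α6β4), Cd151 (the tetraspanin that associates with it), Col17a1 (type XVII collagen, BP180), Dst (the gene of BPAG1e) and Plec (plectin), Lama3 and Lamb3 (chains of laminin-332), and Col7a1 (type VII collagen).

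The data were 2 libraries of single-cell RNA-seq (10x Genomics) from palatal gingiva of wild-type female C57BL/6 mice (C57Bl6/J in the treatment protocol), 8-12 weeks old. Either CpG ODN, a ligand of TLR9, or LPS, used as the ligand of TLR2/4, had been placed on the palate (3 µl at 1 µg/ml, kept under an oral appliance for 1 h), and the tissue was taken on day 4 and digested with collagenase II and trypsin. Cells of 4 mice were pooled in each library, so the ligand, the library and the mice cannot be told apart, and no untreated library was analysed here. With 1 library per ligand there was no test between ligands, and all intervals are 95% intervals that cover counting error only. The deposited matrices held 6219 barcodes after CpG ODN and 2016 after LPS, of which 4888 and 1277 had at least 800 detected genes and were used. Median depth was 11078 UMIs (unique molecular identifiers, 1 per captured RNA molecule) in the cells kept after CpG ODN and 22680 after LPS, and 5 barcode sequences occurred in both libraries, 1 of them in cells kept in both.

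Cell groups were rebuilt from clusters made without the 9 genes and without the related genes listed below. Basal keratinocyte-like cells (1075 in the CpG ODN library, 247 in the LPS library) had the markers Krt5, Krt15, Cxcl14 and Trp63. Dividing keratinocyte-like cells (290 and 77) had Mki67 and Top2a. The other groups are called by their genes: H19 cells (110 and 90, with Krt5, Krt15 and Trp63 as well), Krt76 cells without high Krt10 (1286 and 242), Krt10 cells (856 and 243, which include a cluster with Lor), Krt4 cells (87 and 64) and Odam cells (17 and 16). The Odam cells had Odam at 6111 CPM (UMIs per 1000000 UMIs of the group) after CpG ODN and 10041 CPM after LPS, with Slpi and Krt17. Amtn, another gene of the junctional epithelium, had no UMI in them or in any other cell group. Of the fibroblast markers, Dcn alone was above 2 CPM in the basal cells, at 574 and 679 CPM, and its part in the results was not tested. The gland, plasma cell and red cell lists summed to 45.9, 31.8 and 30.5 CPM in the basal cells after CpG ODN and to 50.6, 25.3 and 74.1 CPM after LPS, and their part was not tested either. Each of the B cell, T cell, myeloid, endothelial, mural, Schwann cell and melanocyte lists summed to at most 12.6 CPM.

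Promoter windows from RefSeq (GRCm38.p6), 250 bases before to 50 bases after an annotated start, were at hand for 5 of the 9 genes. They are shown because these genes ran from the steepest (Lamb3, Col17a1) to the shallowest (Cd151) difference between basal and Krt10 cells. Each is the gene's first listed window, read 5′ to 3′ on the gene's strand (minus for Col17a1, plus for the others). Capitals mark matches on either strand to 4 motifs. These were TATAAA as the TATA box, with GGGCGG as the GC box, then GCCNNNGGC for the factor AP-2, and last TGANTCA for AP-1. The windows are Col17a1 at chr19:47691993-47692292, Lamb3 at chr1:193301744-193302043, Col7a1 at chr9:108953336-108953635, Dst at chr1:34011345-34011644 and Cd151 at chr7:141467112-141467411.
Col17a1: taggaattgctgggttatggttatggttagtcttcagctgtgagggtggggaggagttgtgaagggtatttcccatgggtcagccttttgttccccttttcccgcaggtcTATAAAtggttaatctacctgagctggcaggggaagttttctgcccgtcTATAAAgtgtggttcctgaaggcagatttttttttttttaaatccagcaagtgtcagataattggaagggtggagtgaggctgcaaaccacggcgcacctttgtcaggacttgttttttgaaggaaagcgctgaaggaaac
Lamb3: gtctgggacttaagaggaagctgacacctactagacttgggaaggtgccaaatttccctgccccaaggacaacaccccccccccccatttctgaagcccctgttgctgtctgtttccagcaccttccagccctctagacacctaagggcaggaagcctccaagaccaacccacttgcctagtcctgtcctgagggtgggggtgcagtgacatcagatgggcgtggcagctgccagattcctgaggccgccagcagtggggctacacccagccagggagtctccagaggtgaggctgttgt
Col7a1: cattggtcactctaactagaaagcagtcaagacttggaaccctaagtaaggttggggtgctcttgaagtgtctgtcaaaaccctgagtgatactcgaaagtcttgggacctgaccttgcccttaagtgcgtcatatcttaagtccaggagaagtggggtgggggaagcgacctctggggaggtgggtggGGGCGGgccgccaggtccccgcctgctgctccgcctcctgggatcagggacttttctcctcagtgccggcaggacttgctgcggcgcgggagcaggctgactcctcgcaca
Dst: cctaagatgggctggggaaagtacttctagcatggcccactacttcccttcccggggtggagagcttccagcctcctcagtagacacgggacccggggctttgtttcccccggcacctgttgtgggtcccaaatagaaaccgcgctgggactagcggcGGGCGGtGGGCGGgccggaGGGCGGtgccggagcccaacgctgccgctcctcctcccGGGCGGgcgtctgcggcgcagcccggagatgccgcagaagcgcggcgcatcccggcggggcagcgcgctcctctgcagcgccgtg
Cd151: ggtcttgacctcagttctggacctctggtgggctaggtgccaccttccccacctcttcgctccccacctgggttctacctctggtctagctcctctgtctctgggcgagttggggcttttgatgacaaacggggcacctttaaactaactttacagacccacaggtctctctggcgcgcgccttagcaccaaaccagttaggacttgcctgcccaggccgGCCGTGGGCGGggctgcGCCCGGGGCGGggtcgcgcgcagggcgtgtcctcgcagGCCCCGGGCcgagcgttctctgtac
TATAAA was found in the Col17a1 window, 2 times, and in 13.6% of the 32851 windows of all genes. GGGCGG was found in the windows of Dst, 4 times, of Cd151, 2 times, and of Col7a1, 1 time, and in 35.7% of all windows. GCCNNNGGC was found 3 times in the Cd151 window, with some of these letters shared with its GC boxes, and in 16.6% of all windows. TGANTCA was in none of the 8 windows of the 9 genes and in 7.81% of all windows. The Lamb3 windows held none of the 4.

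By the GENCODE M21 annotation, in which 32158 of the 32285 gene identifiers were found, the genes lie on the GRCm38 mouse assembly as follows. Col17a1 (ENSMUSG00000025064) is at chr19:47646344-47692094 on the minus strand. Itga6 (ENSMUSG00000027111) is at chr2:71745616-71858416 and Itgb4 (ENSMUSG00000020758) at chr11:115974709-116008412, both on the plus strand. Dst (ENSMUSG00000026131) covers chr1:33908225-34308661 on the plus strand with 20 annotated transcripts, and the counts per gene do not separate its epithelial form from the others. Plec (ENSMUSG00000022565), with 22 transcripts, is at chr15:76170974-76232574 on the minus strand and overlaps Parp10. Lama3 (ENSMUSG00000024421) is at chr18:12333819-12583013 and Col7a1 (ENSMUSG00000025650) at chr9:108953586-108984875, both on the plus strand. Cd151 (ENSMUSG00000025510) is at chr7:141467392-141471473 on the plus strand. Lamb3 (ENSMUSG00000026639) covers chr1:193207699-193343878 on the plus strand and overlaps G0s2 and Hsd11b1, and whether reads were assigned by strand is not given in the sources used here.

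In the gingival epithelium, the 9 genes were highest in basal cells or in Odam cells and lowest in the Krt10 or Krt4 cells, with the exception of Dst after LPS, which was lowest in the Odam cells. Compared with Krt10 cells, basal cells had at least 2-fold more CPM of 9 of the 9 genes in both libraries, where 20.0% of the 8101 genes with 100 or more UMIs in the pair of groups passed the same rule. The median log2 ratio of the 9 genes was 4.03 after CpG ODN and 4.46 after LPS, against 0.38 and 0.41 over all genes tested. The sizes ran from under 3-fold for Cd151 to over 100-fold for Lamb3.

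Both subunits of integrin α6β4 were far higher in basal than in Krt10 cells. Itga6, the α6 subunit, was at 516 CPM in the basal cells after CpG ODN (502 to 530) and at 533 CPM after LPS (512 to 555), against 31.6 and 24.2 CPM in the Krt10 cells. The basal level was thus 16.3-fold (15.2 to 17.6) and 22.0-fold (19.7 to 24.8) that of the Krt10 cells. Itgb4, the β4 subunit, was at 381 CPM (369 to 393) and 384 CPM (366 to 402) in basal cells and at 7.94 and 4.43 CPM in Krt10 cells. This was a 48.0-fold (41.7 to 55.5) and an 86.6-fold (67.1 to 114) difference. In both libraries the interval of Itgb4 lay above that of Itga6, so the subunits were not reduced to the same degree between these groups.

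Col17a1 was counted in every basal cell. It had at least 1 UMI in all 1075 basal cells after CpG ODN and in all 247 after LPS, with a median of 12 and 25 UMIs per cell. As counted, 19.7% and 22.6% of the deeper Krt10 cells had one too. Thinned to 1500 UMIs per cell, an expected 84.3% and 85.9% of basal cells had a Col17a1 UMI, against 2.32% and 1.51% of Krt10 cells and 0.42% and 0.61% of the B cells, a class that should lack it (median depth 2150 and 3157 UMIs, against 9340 and 17798 in basal cells). Its level was 1326 CPM (1304 to 1348) and 1465 CPM (1430 to 1501) in basal cells and 18.7 and 9.73 CPM in Krt10 cells. The basal level was 70.8-fold (64.7 to 77.7) the Krt10 level after CpG ODN and 151-fold (127 to 180) after LPS. The larger ratio after LPS went with a lower level in the Krt10 cells, and Lor, a gene of the outermost layers, was at 3646 CPM in these Krt10 cells after LPS and 524 CPM after CpG ODN. Within the Krt10 cluster with Lor, Col17a1 was at 15.8 CPM (11.7 to 20.7) after CpG ODN and 2.58 CPM (1.04 to 5.32) after LPS. In the Krt10 cluster with 216 and 63 cells it was at 13.4 CPM (10.9 to 16.3) and 1.25 CPM (0.407 to 2.92), and in the remaining Krt10 clusters the intervals overlapped. Col1a1, a fibroblast gene, was at 8.33 and 0.07 CPM in the Krt10 cells. The part of the makeup and of such RNA in the ratio was not tested.

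The plakins were graded more gently. Dst was at 1110 CPM (1090 to 1131) and 1093 CPM (1062 to 1124) in basal cells and at 83.7 and 72.7 CPM in Krt10 cells, a 13.3-fold (12.7 to 13.9) and 15-fold (14.0 to 16.1) difference. Plec, which links intermediate filaments to several kinds of junction, was at 416 CPM (404 to 429) and 359 CPM (342 to 377) in basal cells and at 80.0 and 72.7 CPM in Krt10 cells. Its ratio was 5.20 (4.93 to 5.48) and 4.94 (4.56 to 5.35). Cd151, which is found in many cell types, had the smallest ratio of the 9 genes, with 84.0 CPM (78.5 to 89.8) and 94.7 CPM (85.9 to 104) in basal cells against 28.6 and 35.9 CPM in Krt10 cells. That was 2.94-fold (2.66 to 3.24) and 2.64-fold (2.31 to 3.01).

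Lamb3 and Lama3, both chains of laminin-332, differed in the steepness of their gradient. Lamb3 was at 171 CPM (163 to 179) and 190 CPM (178 to 203) in basal cells, while only 43 Lamb3 UMIs were counted in all 856 Krt10 cells of the CpG ODN library and 7 in all 243 of the LPS library. The basal level was 103-fold (76 to 143) and 374-fold (181 to 934) higher. Lama3 was at 75.6 CPM (70.4 to 81.1) and 77.6 CPM (69.7 to 86.2) in basal cells and at 5.81 and 5.37 CPM in Krt10 cells, a ratio of 13.0 (10.9 to 15.6) and 14.4 (11.2 to 18.8). The intervals of Lama3 and Lamb3 did not overlap in either library. Col7a1 was at 100.5 CPM (94.5 to 107) and 116 CPM (106 to 126) in basal cells and at 2.98 and 1.74 CPM in Krt10 cells. The basal level was 33.7-fold (26.7 to 43.0) and 66.4-fold (44.2 to 105) higher.

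**Figure D1:**
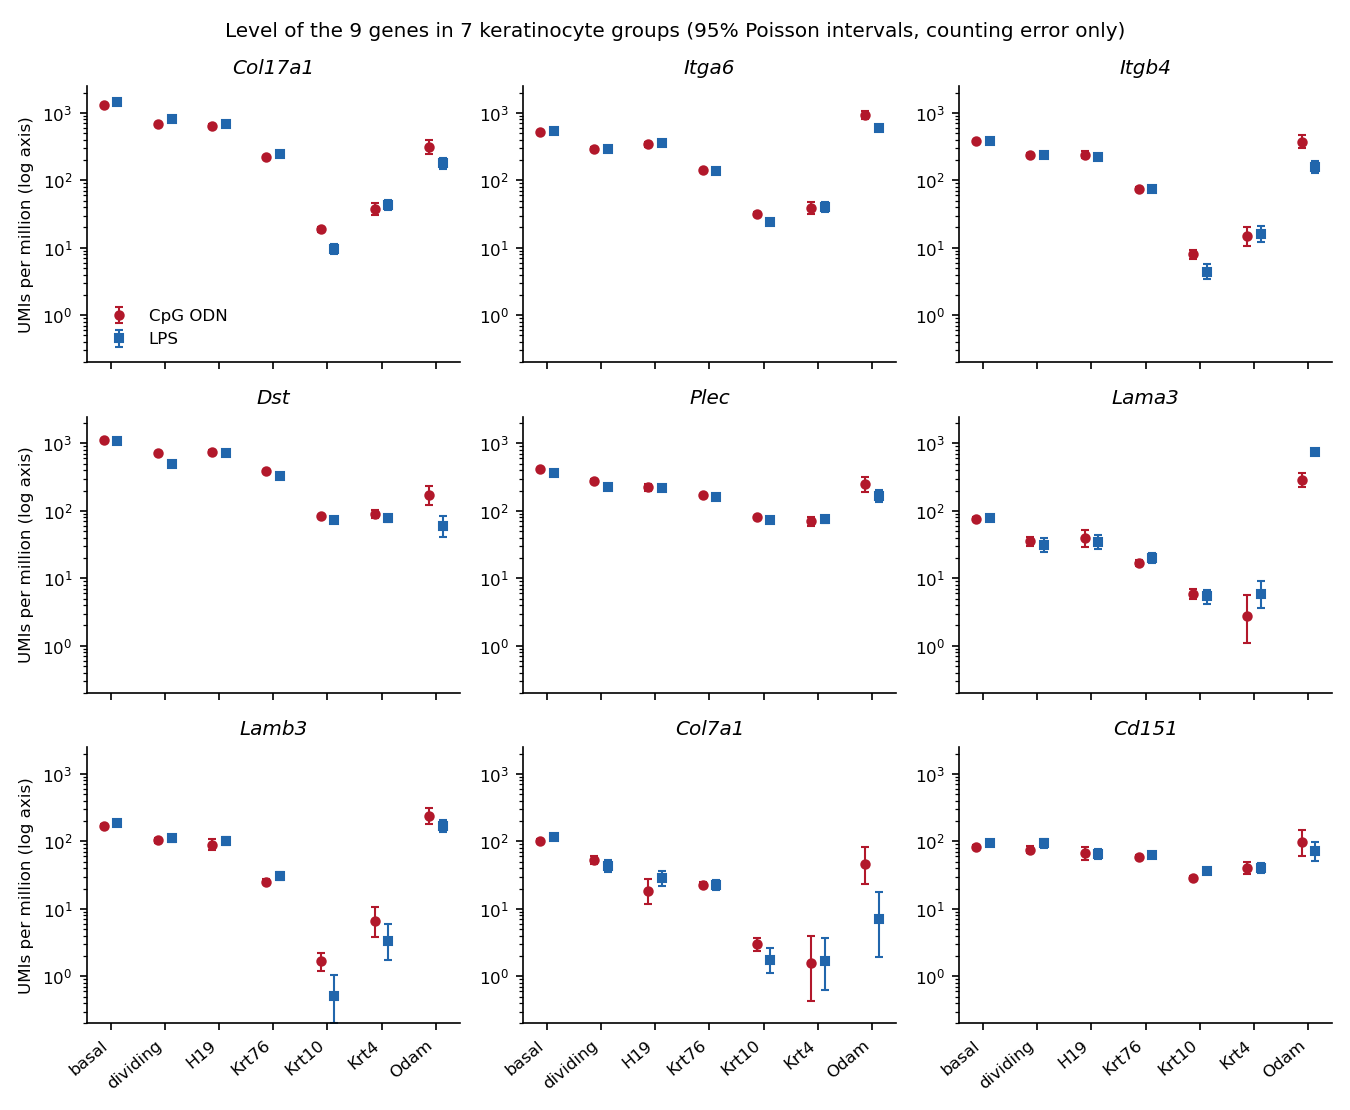
Level of each of the 9 genes (CPM, log axis) in 7 keratinocyte groups after CpG ODN (circles) and LPS (squares), with exact Poisson 95% intervals. The libraries lie close together in the basal, H19 and Krt76 cells, each gene has its lowest or near its lowest level in Krt10 cells, and Lama3 stands above its basal level in Odam cells.

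Most of these differences, but not all, were also seen in UMIs per cell. Krt10 cells were deeper than basal cells, with a median of 28318 and 51677 UMIs against 9340 and 17798, so the CPM of a gene and its UMIs per cell can differ in order between the groups. Per cell, basal cells had at least 2-fold more UMIs of 7 of the 9 genes in both libraries, where 3.49% of all genes tested did. Col17a1 had 12.7 and 26.8 UMIs per basal cell and 0.564 and 0.551 per Krt10 cell. Plec had 3.98 and 6.56 UMIs per basal cell and 2.41 and 4.12 per Krt10 cell. For Cd151 the order turned around, with 0.804 and 1.73 UMIs per basal cell against 0.862 and 2.03 per Krt10 cell. Cd151 is therefore lower in Krt10 cells as a share of RNA and not per cell.

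The Krt76 cells lay between. Basal cells had at least 2-fold more CPM than Krt76 cells of 8 of the 9 genes in both libraries, against 4.89% of the 7480 genes tested, with Cd151 as the exception at 1.41-fold (1.29 to 1.54) and 1.5-fold (1.31 to 1.71). Lamb3 (6.79-fold and 6.24-fold), Col17a1 (5.98-fold and 5.97-fold) and Itgb4 (5.11-fold and 5.25-fold) differed most. Plec was 2.46-fold and 2.25-fold higher in basal cells, and Dst 2.88-fold and 3.32-fold. The median log2 ratio of the 9 genes was 2.14 after CpG ODN and 1.95 after LPS, against 0.11 and 0.10 over all genes tested.

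The 3 clusters of Krt76 cells formed a series in which Krt5 was lower and Krt76 higher from one to the next, and Col17a1 followed it in both libraries. After CpG ODN, Col17a1 was at 1160 to 1432 CPM in the 3 basal clusters, at 400 CPM (382 to 418), 216 CPM (206 to 226) and 96.0 CPM (88.6 to 104) in the Krt76 clusters, and at 28.2 CPM (24.5 to 32.3) in the Krt10 cluster with the most Krt5. After LPS the corresponding levels were 1280 to 1571 CPM, then 491 CPM (454 to 531), 266 CPM (248 to 286) and 119 CPM (107 to 132), then 24.0 CPM (18.7 to 30.4). No 2 neighbouring steps of that series overlapped in either library. Lamb3 went the same way, from 158 to 186 CPM in the basal clusters after CpG ODN to 49.6, 25.3 and 6.85 CPM in the Krt76 clusters and 2.93 CPM (1.83 to 4.43) in that Krt10 cluster. Among the 4 Krt10 clusters there was no such order for Lamb3. After CpG ODN it was at 0.671 CPM (0.218 to 1.57) and 1.18 CPM (0.541 to 2.25) in the 2 clusters beside the one just given, and at 2.16 CPM (0.870 to 4.46) in the cluster with Lor, from 7 UMIs over 92 cells. After LPS the cluster with Lor had 0 UMIs over 34 cells, which allows up to 1.11 CPM, and the other 3 were at 0.251 to 1.37 CPM.

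**Figure D2:**
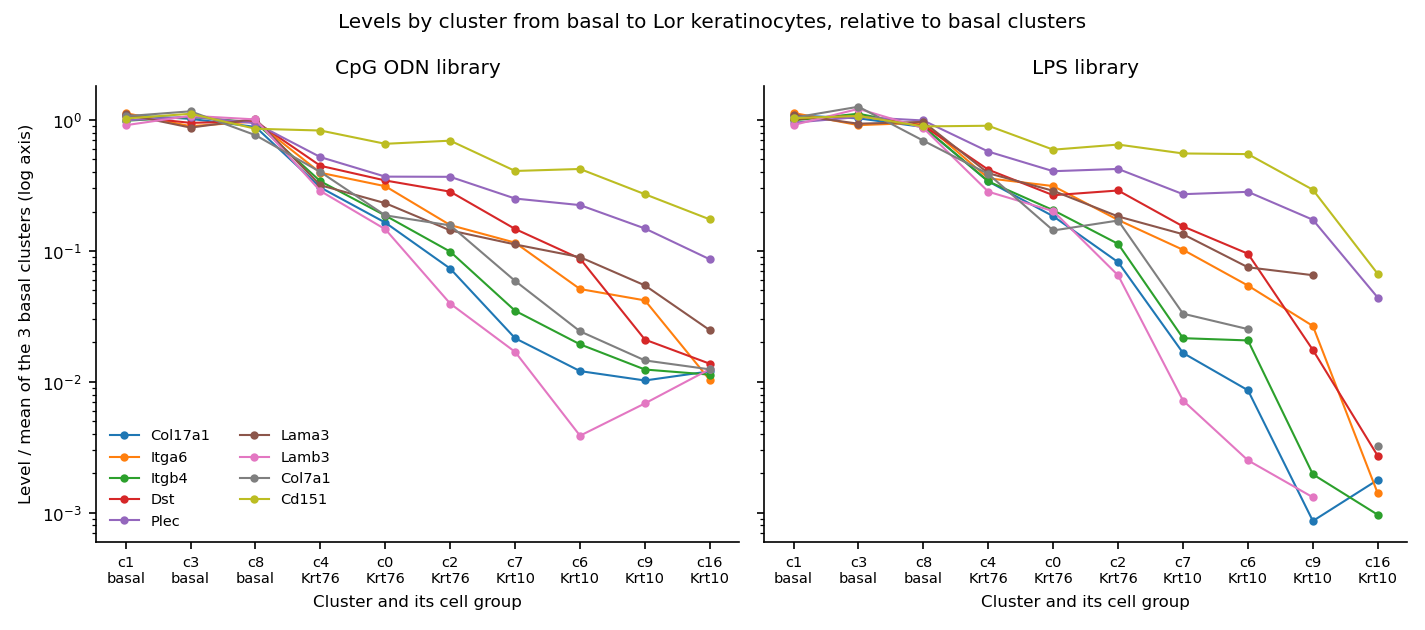
Level of each gene in 10 keratinocyte clusters, divided by the mean of the 3 basal clusters (log axis), in the CpG ODN library (left) and the LPS library (right); clusters (named c and a number) run from basal through Krt76 to Krt10 cells, and levels of 0 are not drawn. Cd151 and Plec stay nearest to the basal level, and Lamb3 and Col17a1 are among the lowest in the Krt10 clusters.

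Within the basal cells, Itga6 and Col7a1 differed between clusters in different ways. The basal cluster led by Igfbp3 (448 and 99 cells) had Itga6 at 574 CPM (552 to 597) and 594 CPM (560 to 631), above the 456 to 495 CPM and 480 to 501 CPM of the other 2. Col7a1 was highest in the basal cluster with 353 and 90 cells, at 116 CPM (104 to 128) and 144 CPM (125 to 165), and lowest in the one with 274 and 58 cells, at 76 CPM (66.4 to 86.7) and 79.1 CPM (64.2 to 96.4). That order was the same in both libraries, but the intervals of the highest and the next cluster overlapped in each.

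Dividing and H19 cells had less CPM of most of the 9 genes than the basal cells. In dividing cells, Col17a1 was at 0.52 of its basal CPM after CpG ODN (0.50 to 0.54) and 0.55 after LPS (0.52 to 0.58), and Itga6 at 0.56 (0.53 to 0.60) and 0.54 (0.49 to 0.59). Lama3 was at 0.46 (0.39 to 0.55) and 0.41 (0.31 to 0.53), and was 1 of 9 genes at least 2-fold lower in both libraries, against 0.440% of all genes tested. Cd151 did not differ in CPM beyond counting error, at 0.90 (0.79 to 1.02) and 0.98 (0.83 to 1.17). Dividing cells were deeper, with a median of 13025 and 26186 UMIs. In UMIs per cell, Lama3 was at 0.71 and 0.63 of the basal value, no longer 2-fold lower, Col17a1 at 0.80 and 0.85, Plec at 1.01 and 0.99, and Cd151 was higher, at 1.37 and 1.53.

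In the H19 cells, a group with basal keratins, Col17a1 was at 0.48 (0.45 to 0.52) and 0.47 (0.44 to 0.49) of its basal level and Itga6 at 0.66 (0.60 to 0.73) and 0.67 (0.62 to 0.73). Col7a1 was lower still, with 18.4 and 28.3 CPM, at 0.18 (0.12 to 0.28) and 0.25 (0.19 to 0.32) of the basal level. Col17a1 and Col7a1 were the 2 of 9 genes at least 2-fold lower in both libraries, against 1.86% of all genes tested. In UMIs per cell, Col7a1 was at 0.22 and 0.32 of the basal value and Col17a1 at 0.57 and 0.61, no longer 2-fold lower. The cell type of this group was not settled by the markers used.

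The Odam cells differed from basal cells in some of these genes. Compared with basal cells, 1 of the 9 genes, Lama3, was at least 2-fold higher in both libraries, against 8.05% of the 5066 genes tested, and 3, Col17a1, Dst and Col7a1, were at least 2-fold lower, against 13.6%. The share that was higher was near that of all genes, and without 2 cells of each library Lama3 was at 1.58 and 1.62 of the basal level. The median log2 ratio of the 9 genes was -0.01 after CpG ODN and -1.12 after LPS, against -0.14 and -0.33 over all genes tested. With 17 and 16 cells, these values rest on few cells. The libraries also differed in makeup, since 4 of the 17 cells and 9 of the 16 had at least 100 Odam UMIs, a limit chosen after the values were seen. That limit is a count, and the Odam cells were deeper after LPS, with a median of 35534 UMIs against 10535 after CpG ODN.

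Col17a1 was at 316 CPM (249 to 396) in the Odam cells after CpG ODN and 179 CPM (146 to 217) after LPS, 0.24 (0.19 to 0.30) and 0.12 (0.10 to 0.15) of the basal level. Dst was at 173 CPM (124 to 234) and 59.6 CPM (41.2 to 83.2), 0.16 (0.11 to 0.21) and 0.05 (0.04 to 0.08) of the basal level. Both genes were thus well below their basal level in each library, and Col7a1 had only 11 and 4 UMIs. Itga6 was at 923 CPM (805 to 1054) and 597 CPM (536 to 664), and so was 1.79-fold (1.56 to 2.05) the basal level after CpG ODN and 1.12-fold (1.00 to 1.26) after LPS. Itgb4 was at 375 CPM (301 to 462) and 158 CPM (127 to 194), and its ratio was 0.98 (0.79 to 1.21) after CpG ODN and 0.41 (0.33 to 0.51) after LPS. Of the 89 Itgb4 UMIs after CpG ODN, 78 came from the 13 cells with under 100 Odam UMIs. In the cells with at least 100 it was at 97.3 and 98.2 CPM, with overlapping intervals and below the basal level. Plec was at 0.60 (0.45 to 0.77) and 0.46 (0.37 to 0.57) of the basal level, and Cd151 at 1.15 (0.73 to 1.74) and 0.76 (0.54 to 1.05).

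Lama3 in the Odam group came mostly from a few cells. Of Lama3, 69 UMIs (291 CPM) were counted in the 17 Odam cells of the CpG ODN library and 431 (755 CPM) in the 16 of the LPS library, 3.85-fold (2.96 to 4.92) and 9.73-fold (8.43 to 11.2) the basal level. A single LPS cell held 285 of the 431 UMIs, and in each library 2 cells held most of them, 47 of 69 and 369 of 431. Without the top cell of each library the ratio was 2.49 (1.75 to 3.43) and 3.64 (2.98 to 4.42), and without the top 2 it was 1.58 (0.99 to 2.42) and 1.62 (1.22 to 2.13), under the 2-fold rule. Lamb3 was spread over more cells and was nearer its basal level, at 1.40 (1.06 to 1.83) and 0.90 (0.73 to 1.11), or 1.72 (1.28 to 2.25) and 0.64 (0.48 to 0.83) without those cells.

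**Figure D3:**
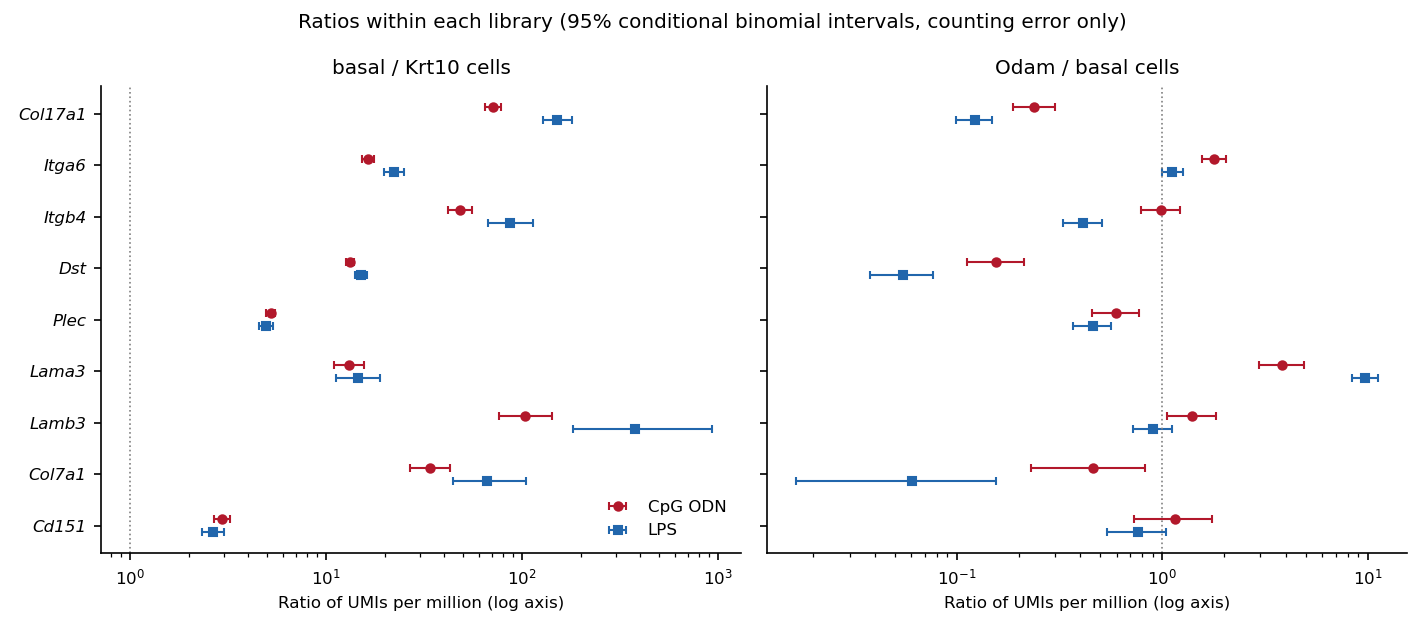
Ratio of CPM for each gene between basal and Krt10 cells (left) and between Odam and basal cells (right), log axes, for CpG ODN (circles) and LPS (squares), with exact conditional binomial 95% intervals. All left-hand ratios lie above 1 (dotted line), while on the right the whole interval lies above 1 in both libraries for Lama3, and below 1 for Col17a1, Dst, Plec and Col7a1.

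Cell by cell, the Odam cells with at least 100 Odam UMIs had almost no Col17a1 or Dst. The limit of 100 Odam UMIs gave 4 cells after CpG ODN and 9 after LPS. In the 4 CpG ODN cells, with a median depth of 27535 UMIs, Col17a1 had 10 UMIs, 8 of them in 1 cell, and Dst had 0 UMIs, which allows up to 26.5 CPM. In the 9 LPS cells, with a median depth of 45094 UMIs, Col17a1 had 3 UMIs, all in 1 cell, and Dst had 4, while Col7a1 had 0. Itga6 was present in all 13 of these cells, with 9 to 33 UMIs per cell after CpG ODN and 2 to 75 after LPS, and its summed level was 752 CPM (600 to 930) and 647 CPM (570 to 731). Itgb4 had 11 and 39 UMIs in them, with intervals of 48.6 to 174 and 69.8 to 134 CPM.

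The remaining Odam cells, 13 after CpG ODN and 7 after LPS, had more of the basal genes. In each library 2 of them had no Odam UMI of their own. Col17a1 was at 523 CPM (404 to 667) and 570 CPM (463 to 694) in them, Itgb4 at 628 CPM (496 to 784) and 294 CPM (219 to 386), and Dst at 330 CPM (237 to 448) and 173 CPM (117 to 247). Lama3 was at 88.6 CPM (44.2 to 158) and 74.9 CPM (39.9 to 128), which overlapped the basal level. In each library Col17a1, Itgb4 and Dst were higher, and Lama3 lower, in the cells with under 100 Odam UMIs. The limit is a count, and the cells on its 2 sides differed in depth as well as in Odam. The CpG ODN cells with 85 and 79 Odam UMIs, at depths of 11992 and 12578 UMIs, had 0 UMIs of Col17a1, Itgb4 and Dst. An LPS cell with 177 Odam UMIs at a depth of 49031 lay above the limit. With the cells of 100 or more Odam UMIs alone, 5 of the 9 genes (Col17a1, Itgb4, Dst, Plec and Col7a1) were at least 2-fold below basal cells in both libraries, against 27.1% of the 4924 genes tested.

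**Figure D4:**
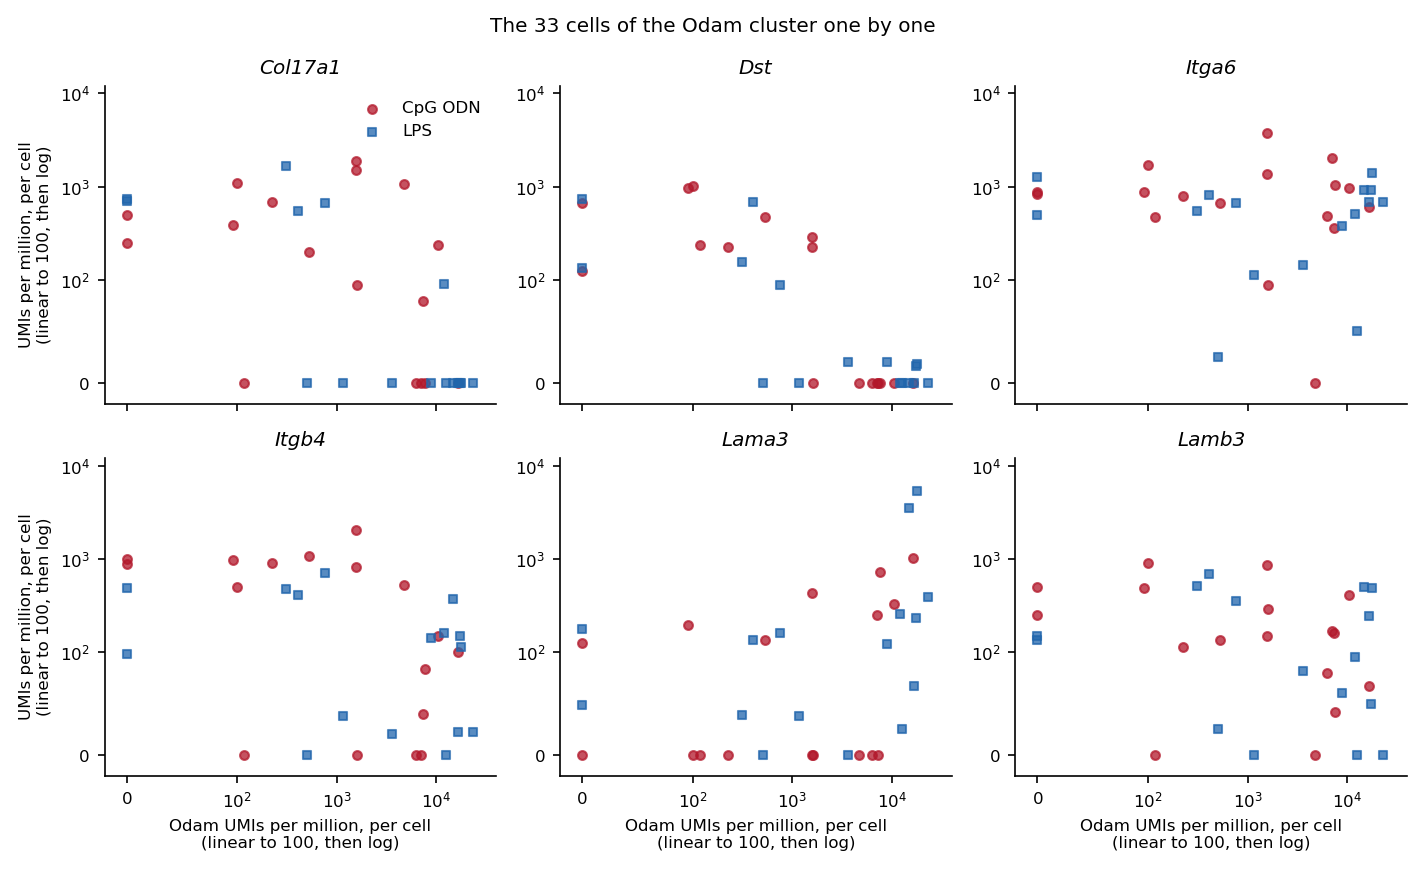
CPM of 6 genes in each of the 33 Odam cells against the cell's own Odam level (both axes linear to 100, then log), CpG ODN as circles and LPS as squares. Col17a1 and Dst are at or near 0 in most cells with high Odam, Itga6 is present across the range, and a few cells stand out in Lama3.

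Of the marker lists of other cell classes, the myeloid list was high in the Odam cells, at 603 CPM after CpG ODN and 13598 CPM after LPS. S100a8 alone made up that sum, and Lyz2, Tyrobp, Fcer1g and Csf1r had 0 UMIs in both libraries. S100a8 came mostly from a few cells. After CpG ODN 1 cell held 136 of its 143 UMIs, and after LPS 2 cells held 5969 of 7763. The cells with under 100 Odam UMIs had 3 S100a8 UMIs in each library. The B cell, T cell and melanocyte lists also had 0 UMIs. The 2 LPS cells with the most Lama3 had 0 and 1 S100a8 UMIs.

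The ligands were compared in basal cells, and none of the 9 genes differed by 1.5-fold or more, against 2.53% of the 8197 genes tested. The ratio of CpG ODN to LPS was lowest for Col7a1, at 0.87 (0.78 to 0.97), and highest for Plec, at 1.16 (1.09 to 1.23). Col17a1 was at 0.90 (0.88 to 0.93), Lamb3 at 0.90 (0.83 to 0.98) and Cd151 at 0.89 (0.79 to 1.00). The intervals of Itga6 (0.97, 0.92 to 1.02), Itgb4 (0.99, 0.94 to 1.05), Dst (1.02, 0.98 to 1.05) and Lama3 (0.97, 0.86 to 1.11) held 1. The differences whose intervals excluded 1 were small, and with 1 library each they cannot be told from a difference between libraries or mice. In the dividing cells, Dst was at 717 CPM after CpG ODN and 495 CPM after LPS, a ratio of 1.45 (1.35 to 1.55), while in the H19 cells it was 1.02 (0.94 to 1.11). Larger ratios were seen in Krt10 cells, for Col17a1 (1.92, 1.59 to 2.35), Itgb4 (1.79, 1.34 to 2.43), Col7a1 (1.71, 1.07 to 2.83) and Lamb3 (3.28, 1.46 to 8.64). Cd151 was at 0.80 there (0.71 to 0.90), and the remaining genes were at 1.08 to 1.31. In the few Odam cells, Dst was at 2.90 (1.80 to 4.71), Itgb4 at 2.38 (1.75 to 3.23) and Lama3 at 0.39 (0.29 to 0.50). Without the 2 Odam cells with the most Lama3 UMIs in each library, Lama3 was at 120 and 126 CPM. In the cells with at least 100 Odam UMIs, Itgb4 was at 97.3 and 98.2 CPM. The part of the unequal makeup of the Odam cells in these ratios was not tested.

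Outside the keratinocytes, the genes were split up among cell classes. Endothelial cells (49 and 24) had Itga6 at 306 CPM (238 to 388) and 299 CPM (225 to 390), Itgb4 at 293 CPM (227 to 373) and 172 CPM (117 to 244), and Plec at 697 CPM (592 to 815) and 470 CPM (376 to 582). Cd151 was at 253 CPM (192 to 328) and 354 CPM (273 to 452) in them, above its basal keratinocyte level in both libraries. Lamb3 and Col7a1 had 0 UMIs there, which allows up to 13.3 and 16.6 CPM, and Col17a1 had 2 and 0. Endothelial cells thus had the integrin with its tetraspanin and plectin, and type VII collagen was not detectable at this depth. In mural cells (64 and 16), Dst was at 497 CPM (424 to 580) and 462 CPM (365 to 577) and Itga6 and Itgb4 had 0 UMIs.

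Fibroblasts (224 and 51 cells), the other known source of type VII collagen, had Col7a1 at 20.7 CPM (12.4 to 32.3) and 8.67 CPM (2.36 to 22.2), below the basal keratinocytes in both libraries. Schwann-like cells (36 and 14) had Dst at 734 CPM (617 to 865) and 619 CPM (453 to 826), Itga6 at 312 CPM (238 to 402) and 242 CPM (144 to 383) and Itgb4 at 172 CPM (118 to 241) and 80.8 CPM (29.6 to 176). They also held keratin RNA, with Krt14 at 9021 and 323 CPM, and the part of that RNA in these values was not tested. Lama3 had 0 UMIs in them in both libraries. The gland cells (101 and 67) with Krt8, Krt18, Krt19 and Aqp5 had all 9 genes, with Col17a1 at 298 CPM (270 to 329) and 129 CPM (112 to 149) and Lamb3 at 92.9 CPM (77.2 to 111) and 51.7 CPM (41.0 to 64.4). This group also held RNA of keratinocyte keratins, with Krt14 at 6244 and 2282 CPM and Krt5 at 2416 and 588 CPM. The part of that RNA in the gland values was not tested.

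The B cell group (285 and 69 cells) had Lamb3 and Plec and hardly any other gene of the set. Lamb3 was at 67.3 CPM (49.3 to 89.8) and 76 CPM (45.0 to 120) in them, from 46 and 18 UMIs. Lama3 had 0 UMIs in both libraries, and Col17a1 had 3 and 1. Plec was at 33.7 CPM (21.3 to 50.5) and 38.0 CPM (17.4 to 72.1). Lamb3 was lower, at 16.7 CPM (8.65 to 29.2), in an unnamed cluster of 131 cells led by Cd79b, Mzb1 and Ms4a1. In another of 111 cells, led by Hist1h2ap and Ighg2b, it was at 20.5 CPM (13.5 to 29.9). T cells had Lamb3 at 55.4 CPM (30.3 to 93.0) after CpG ODN and 21.5 CPM (4.43 to 62.7) after LPS, so it was not particular to the B cell group. The Lamb3 counts are per gene, and which transcript or overlapping gene the B cell UMIs came from was not tested.

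**Figure D5:**
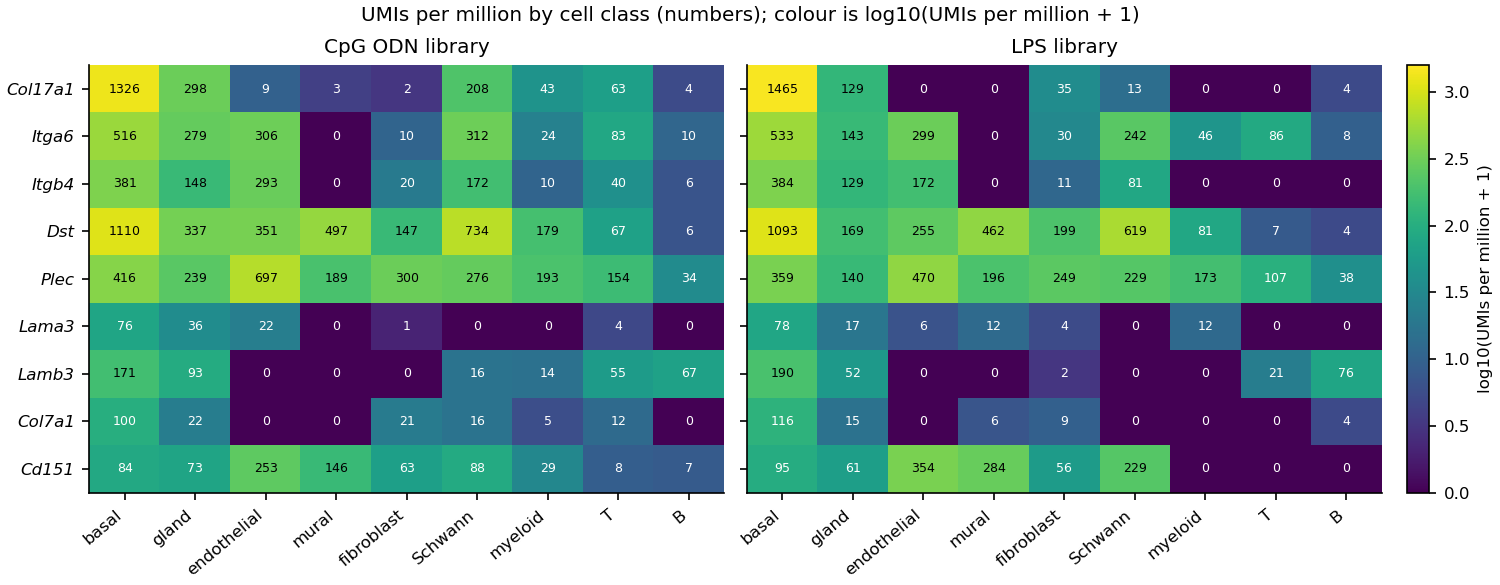
CPM of the 9 genes (rows, the numbers in the cells) in basal keratinocytes and 8 other cell classes (columns) of each library, with colour giving log10 of the level plus 1. In endothelial cells Itga6, Itgb4, Dst, Plec and Cd151 are above 150 CPM in both libraries, in mural cells Dst and Plec are, and in B cells Lamb3 has the highest value.

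The other basement membrane and adhesion genes were described by lists. Of the other laminin chains, Lama5, Lamb1, Lamb2 and Lamc1 were at least 2-fold higher in basal than in Krt10 cells in both libraries. Lama5, the α chain of laminin-511, was at 24.4 and 28.8 CPM in basal cells and at 0.271 and 0.218 CPM in Krt10 cells, where it had 7 and 3 UMIs. Of 15 other basement membrane genes, 6 passed the filter of 100 or more UMIs and 4 were at least 2-fold higher in both libraries (Col4a5, Agrn, Npnt and Col18a1), among them agrin at 36.4-fold (27.9 to 48.4) and 49.5-fold (33 to 77.4). Of 11 other matrix receptors, 10 passed and 4 were higher, the integrin genes Itga2, Itga3 and Itgb1 and the laminin receptor Bcam, with Itga3 at 76.5-fold (50.1 to 123) and 265-fold (103 to 978). Of 7 adhesion adaptors, 6 passed and 4 were higher (Fermt1, Tln1, Ilk and Parva). Of 4 other tetraspanins, 4 passed and 1 was higher (Cd63), and of 5 processing enzymes, 4 passed and 1 was higher (Bmp1), shares near the 20.0% of all genes tested.

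The other plakins went the opposite way. Of Macf1, Ppl, Evpl and Eppk1, 3 were at least 2-fold lower in basal than in Krt10 cells in both libraries, against 10.1% of the 8101 genes tested, and Macf1 was 1.43-fold (1.34 to 1.52) and 1.38-fold (1.25 to 1.53) higher. Periplakin (Ppl), a plakin of desmosomes and the cornified envelope, was at 34.2 and 31.9 CPM in basal cells and at 198 and 283 CPM in Krt10 cells. Envoplakin (Evpl), its partner, was at 26.1 and 29.3 CPM in basal cells and at 179 and 227 CPM in Krt10 cells. The plakins of the hemidesmosome and those of the cornified envelope were thus higher in opposite groups of the epithelium.

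Of 11 other matrix receptors, 9 passed the filter in Odam compared with basal cells. By the 2-fold rule in both libraries 2 were higher and 3 lower, against 8.05% and 13.6% of the 5066 genes tested. Itgav, the αV integrin subunit, was 2.29-fold (1.52 to 3.33) and 2.56-fold (1.99 to 3.28) higher, and Sdc4 3.06-fold (2.54 to 3.65) and 2.70-fold (2.37 to 3.08). Itga2, Itga3 and Cd44 were lower, with Itga3 at 0.32 (0.11 to 0.76) and 0.32 (0.17 to 0.54) of the basal level. Lama5 and Egfl6 had 0 UMIs in the Odam cells of both libraries. Cd81, 1 of 4 other tetraspanins, was 6.99-fold (6.04 to 8.06) and 4.07-fold (3.55 to 4.66) higher. Of the 4 other plakins, Ppl and Evpl were at least 2-fold higher and Eppk1 at least 2-fold lower. Adam10, a processing enzyme, was higher by the same rule, and Col18a1 of the basement membrane list was lower. In H19 cells, 5 of the 15 other basement membrane genes passed the filter. Of these, 3 (Npnt, Egfl6 and Col18a1) were at least 2-fold below basal cells, against 1.86% of all genes tested. Npnt was at 0.17 (0.09 to 0.28) and 0.20 (0.13 to 0.28). Itga2 and Macf1, of the other lists, were also at least 2-fold lower.

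The genes whose pattern was most like the mean of the 9 over 13 cell groups and 2 libraries (26 points) were Moxd1 (Pearson r = 0.92), Rin1 (0.91), Igfbp3 (0.91), Il17re (0.90) and Fermt1 (0.89), of 9741 genes ranked. These are descriptions, since groups of 1 library share its depth and related cells share their genes. Igfbp3 was itself on the list of basal markers used to name the clusters, so its likeness was partly built in. Fermt1, which encodes kindlin-1, an activator of integrins, was at 74.2 and 74.3 CPM in basal cells and at 8.99 and 8.85 CPM in Krt10 cells. Among the 9 genes, the correlation of each with the mean of the others ran from 0.92 for Itgb4 to 0.40 for Cd151.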

How the data were processed

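Per the file headers, the authors made the matrices with Cell Ranger 4.0.0, which counted UMIs per gene and cell barcode, and the deposited counts were used as they stand. The genome build is not given in the sources used here. Barcodes with at least 800 detected genes were kept. The 9 genes, 55 related genes and all lists were chosen with earlier results of these data known. Cells of both libraries were clustered together (2000 variable genes without those 64, 30 components, 15 neighbours, Leiden resolution 1.0, leidenalg 0.10.2). Thresholds that turn clusters into groups were set after the data were seen, and the study's own groups may be made up of other cells. A doublet caller (scanpy 1.11.5) marked 17 and 3 cells, under 0.5%, so doublets were kept, and the 5% of cells with the highest scores were left out in an alternative. UMIs were summed per group and library, with exact Poisson intervals for CPM, exact conditional binomial intervals for ratios and 0.5 UMI added for calls over all genes. The CPM that a count of 0 is said to allow is that of 3 UMIs in the group, and is not the upper end of the exact interval. Related genes past the fold were named for basal against Krt10 cells, apart from the 1 not reported, and for Odam and H19 cells against basal cells. For the Krt76 and dividing cells they were not named. Other genes were named by likeness of pattern. Intervals and calls were tested on simulated counts. The result of 1 related gene is not reported here.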

Additional observations from a re-analysis of the deposited data

Results flagged for a closer look

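Barcodes with fewer than 800 detected genes entered no comparison, and the 9 genes were present in them. They held 345 UMIs of the 9 genes in 1331 barcodes after CpG ODN and 88 UMIs in 739 barcodes after LPS, against 91853 and 45678 UMIs in the cells kept. This is above the 3 UMIs that a count of 0 allows.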

How the results depend on the processing

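No paired analysis was possible because there was 1 library per ligand and the labels pair no mice. The count of genes at least 2-fold higher in basal than in Krt10 cells stayed between 7 and 9 of 9 over 15 alternatives, and that against Krt76 cells between 6 and 8 over 13. The count higher in Odam than in basal cells was 1 in the main analysis, 2 (Itga6 and Lama3) in UMIs per cell and 0 without the 2 Odam cells with the most Lama3 UMIs in each library. The count lower in Odam cells was 3 and ran from 2, in UMIs per cell among others, to 5 with the cells of at least 100 Odam UMIs. Between ligands in basal cells it was 0, and 9 in UMIs per cell, where the median log2 ratio of CpG ODN to LPS over all genes was -0.94 and 7787 of 8197 genes passed, the LPS cells being deeper. In UMIs per cell the ratio of Plec between ligands was 0.607, and Cd151 turned around at 0.932 and 0.850 for basal to Krt10 cells and at 0.896 and 0.917 for basal to Krt76 cells. UMIs per cell and the limits on Odam cells were chosen after the data were seen. Of the single ratios under the alternatives, 614 stayed inside the main interval, 236 moved outside it and 5 reversed, those just given. Of the 236, 12 crossed 1 from a main value whose interval held 1, 7 of them in Odam cells. In UMIs per cell, Lamb3 and Cd151 after LPS went from 0.90 and 0.76 of the basal level to 1.76 and 1.48, and Itgb4 after CpG ODN from 0.98 to 1.44. Itga6 after LPS went from 1.12 to 0.96 without the Odam cell with the most Lama3 and to 0.93 without the top 2. Of the levels and shares in basal cells, 17 stayed inside the main interval and 37 moved outside it. Clustering the libraries separately gave no Odam group, so no Odam value. In Odam cells the number of cells, their unequal Odam content and their depth (a median of 35534 UMIs after LPS, against 17798 in basal cells) all limit what can be said.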

Other observations

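A cluster of 19 cells (12 after CpG ODN and 7 after LPS) that was given no name was led by the smooth muscle genes Cnn1, Myh11, Mylk and Acta2 and held all 9 hemidesmosome and anchor genes. Over both libraries together, Itga6 was at 618 CPM (479 to 785), Dst at 572 CPM (438 to 733), Col17a1 at 314 CPM (217 to 438), Cd151 at 267 CPM (179 to 384), Lamb3 at 194 CPM (120 to 296) and Lama3 at 138 CPM (77.4 to 228). This set them apart from the mural cells, which share Acta2 and Myh11 and had 0 UMIs of Itga6, Itgb4 and Lamb3. The cluster also held keratin RNA, with Krt14 at 3293 CPM and Krt5 at 563 CPM, and the part of that RNA in these values was not tested. The values rest on 6 UMIs (Col7a1) to 67 UMIs (Itga6), and the type of these cells was not tested.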
